A study of Mus musculus with 8 samples.

Results

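The Arid5a knockout (KO, Arid5a-/-) and wild type (WT) were compared in mouse embryonic fibroblasts (MEFs), cells of connective tissue that are cultured from embryos, after both genotypes had received interleukin 6 (IL-6) at 100 ng/ml for 24 h. The libraries were chosen by their genotype and treatment labels and are 4 of the 8 in the series, 2 of KO and 2 of WT (n = 2 in each group). The WT libraries, against which KO was set, were treated as well, so the values below are genotype differences under IL-6. A further 2 KO and 2 WT libraries, from cells kept for 24 h without IL-6, served to show whether a difference was already there. The labels give no mouse strain, allele, sex or embryo for either genotype, nor whether both libraries of a group were grown apart. The p-values therefore cover the spread among these 8 libraries alone, and it may be technical. The series looked for long non-coding RNAs linked to IL-6 and Arid5a in breast cancer. Here the secreted, receptor and signalling genes that set the IL-6-treated cultures apart are described.

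Arid5a is an RNA-binding protein that binds inflammatory messenger RNAs, Il6 among them, and slows their decay. IL-6 binds its receptor chain IL-6R, which then joins the shared chain gp130 (gene Il6st), and JAK kinases on gp130 phosphorylate STAT3, a transcription factor that also switches on the inhibitor SOCS3. Fibroblasts speak to their neighbours through chemokines, which draw in leukocytes, through growth factors and morphogens that act on epithelium and vessels, and through enzymes that cut the matrix.

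Levels are FPKM (fragments per kilobase of transcript, scaled to the fragments of the library) of a gene, the sum over its transcripts, and are given for library 1 and then library 2 of a group or as mean ± SD (n = 2). Differences are KO minus WT on the log2(FPKM + 1) scale, given ± SE, and understate the fold of low genes. Each library rested on 37.2 to 46.9 M fragments, as read from the regular steps of low values (M, 1e6), and 12570 to 12699 genes reached 1 FPKM. Across genes, libraries of a group correlated at 0.9927 to 0.9935 and libraries of different genotypes at 0.8405 to 0.8503. Of 13693 genes tested with limma, 9813 differed between the genotypes with IL-6 at an adjusted p below 0.05 (71.7%), and 2616 of them by at least 1 on the log2 scale, called 2-fold here (19.1%). The median difference over all genes was 0.01. A difference between the genotypes was thus the rule in these cultures, and counts below are read against these shares.

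Markers of cell origin differed along with the genotype. The mesothelial markers, of the cells that line body cavities, were higher in KO in all 12 genes, where they summed to 1727.5 to 1752.9 FPKM against 40.3 to 43.5 in WT, and Wt1, Lrrn4 and Tcf21 were listed at 0 in WT. All 12 markers of limb mesenchyme were lower in KO, with sums of 33.3 to 36.1 against 503.2 to 526.8, and Tbx4, Hoxd13, Pitx1 and Lmx1b were listed at 0 in KO. Fibroblast markers summed to 6286.9 to 6608.1 FPKM in KO and 7841.7 to 8080.0 in WT, and none of the 12 was listed at 0 in either group. The sums hide differences between single markers. All 11 tested differed, 5 of them lower and 3 higher in KO by at least 2-fold, with a median of -0.76. Macrophage markers summed to 5.32 to 5.45 in KO and 35.5 to 35.7 in WT, where Cd14 made up 32.0 and 32.6, while Adgre1, C1qa and C1qb were at 0 in all 4 libraries. All 5 sex-linked markers differed too: the Y-linked Eif2s3y, Kdm5d and Uty were listed at 0 in KO. Genotype, tissue of origin and sex of the embryos cannot be told apart for any gene below, and in bulk RNA fewer cells of a type and less RNA per cell cannot be told apart either.

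Arid5a itself (chromosome 1, 36307733 to 36324029, plus strand of GRCm38) stood at 30.9 and 30.99 FPKM in WT with IL-6 and 8.47 and 8.15 in KO with IL-6, so the KO libraries held 26.9% of the WT level (-1.78 ± 0.10, adjusted p = 2.67e-06). AU021063, the long non-coding RNA named by the series, lay under the expression filter and overlaps A330009N23Rik. It stood at 1.45 and 0.698 FPKM in WT and 0 and 0.126 in KO. The labels do not say which part of Arid5a is deleted. Trib3, a pseudokinase gene, was higher in KO (1.54 ± 0.072, adjusted p = 8.57e-07).

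Most secreted, receptor and signalling genes differed between the IL-6-treated cultures. Of 755 tested, 660 differed (87.4%, against 71.7% of all genes), 283 higher and 377 lower in KO (of all genes, 36.9% were higher and 34.8% lower), and 47.3% differed by at least 2-fold against 19.1% of all genes. The part with a 2-fold difference was 62.3% of 265 secreted genes, 100 of 200 receptor genes and 31.6% of 291 signalling genes. The median size of a difference was 1.43 for secreted genes, 1.0 for receptors and 0.56 for signalling genes, against 0.40 for all genes. These lists were drawn up with results of the same libraries known, and their counts are descriptions. Chemokines, other cytokines and receptors of the gp130 family leaned to the lower side in KO, and IGF-binding and CCN proteins and matrix proteases to the higher side.

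**Figure D1:**
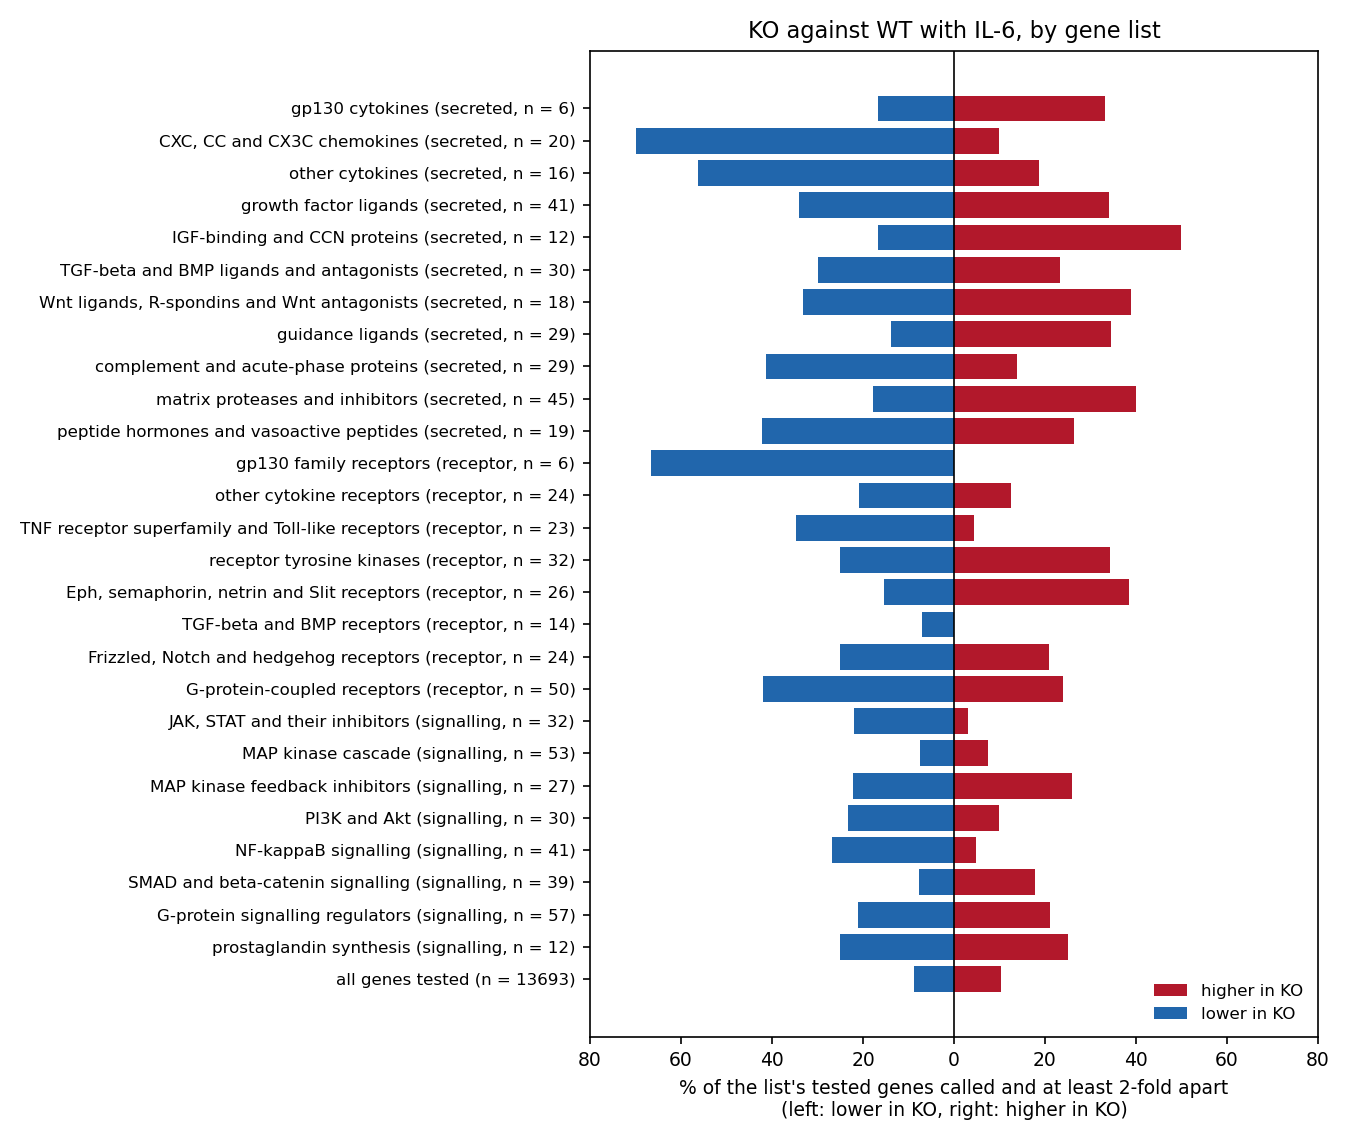
Share of each list's tested genes (%) that passed the test and differed by at least 2-fold between KO and WT with IL-6, lower in KO to the left and higher in KO to the right; n is the number of genes tested. Of the chemokines 14 of 20 are on the lower side, and of the IGF-binding and CCN proteins 6 of 12 on the higher side, against 8.84% and 10.3% of all genes.

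Chemokines had the lowest median of the secreted, receptor and signalling lists with more than 1 gene, -1.93. Of 20 chemokine genes tested, 15 were lower in KO with IL-6 and 14 of these by at least 2-fold, against 8.84% of all genes. The CXC chemokines that act on neutrophils through CXCR2 were nearly silent in KO. Their genes Cxcl1, Cxcl2, Cxcl3 and Cxcl5 lie within 1 stretch of chromosome 5, where Cxcl5 spans 90759360 to 90761624. Cxcl15 lies in the same stretch (90794534 to 90803067) and went the other way at a low level. It averaged 0.0904 FPKM in WT and 1.39 in KO with IL-6. The sequence around the start of a gene, from 250 bases before to 50 bases after it, was taken from RefSeq (GRCm38.p6) for the chemokines with the largest gap that have an entry, and for Il6 and Cxcl12 as genes to set beside them. Both strands were searched for a kappaB motif, the kind of site that NF-kappaB binds, spelled GGGA, any 2 bases and TTCC, and for a STAT motif, TTCNNNGAA, which reads the same on both strands. Capitals mark the matches to the kappaB motif, and all 5 sequences are on the plus strand.
Cxcl1, chr5:90890995-90891294: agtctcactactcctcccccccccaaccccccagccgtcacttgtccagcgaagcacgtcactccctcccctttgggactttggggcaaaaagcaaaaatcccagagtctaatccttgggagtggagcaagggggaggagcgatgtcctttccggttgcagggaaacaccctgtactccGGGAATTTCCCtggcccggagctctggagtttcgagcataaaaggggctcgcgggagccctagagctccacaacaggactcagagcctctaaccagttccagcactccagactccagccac
Cxcl2, chr5:90903649-90903948: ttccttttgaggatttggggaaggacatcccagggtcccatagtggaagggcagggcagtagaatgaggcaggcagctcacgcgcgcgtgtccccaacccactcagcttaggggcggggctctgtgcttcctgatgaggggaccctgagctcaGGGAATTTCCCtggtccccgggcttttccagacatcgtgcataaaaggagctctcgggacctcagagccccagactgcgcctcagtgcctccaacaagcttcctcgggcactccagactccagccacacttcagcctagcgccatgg
Cxcl3, chr5:90785851-90786150: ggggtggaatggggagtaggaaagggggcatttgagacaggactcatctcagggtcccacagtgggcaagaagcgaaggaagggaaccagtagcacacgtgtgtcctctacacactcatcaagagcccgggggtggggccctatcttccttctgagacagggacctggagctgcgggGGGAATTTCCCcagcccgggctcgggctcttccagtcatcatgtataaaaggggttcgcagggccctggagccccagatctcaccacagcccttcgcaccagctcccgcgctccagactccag
Il6, chr5:30012864-30013163: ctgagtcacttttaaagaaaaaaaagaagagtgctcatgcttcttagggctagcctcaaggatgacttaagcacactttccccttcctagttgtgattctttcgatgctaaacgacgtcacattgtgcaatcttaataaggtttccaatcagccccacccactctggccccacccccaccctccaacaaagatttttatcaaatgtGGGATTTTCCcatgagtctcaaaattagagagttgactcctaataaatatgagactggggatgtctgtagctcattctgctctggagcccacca
Cxcl12, chr6:117168285-117168584: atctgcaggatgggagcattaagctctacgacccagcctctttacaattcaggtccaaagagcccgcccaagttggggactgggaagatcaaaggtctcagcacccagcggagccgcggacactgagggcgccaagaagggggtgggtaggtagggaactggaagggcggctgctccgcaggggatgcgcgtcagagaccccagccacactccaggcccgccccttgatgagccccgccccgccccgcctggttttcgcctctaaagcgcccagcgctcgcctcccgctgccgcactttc
In Cxcl1, Cxcl2 and Cxcl3 the capitals are the same 11 letters, GGGAATTTCCC, in which a match on the plus strand and a match on the minus strand overlap, and they begin 71, 97 and 73 bases before the start. Il6 has a single match, 44 bases before its start, and Cxcl12 has none. Of the 14 chemokine genes tested that have an entry, 4 hold the kappaB motif (Cxcl1, Cxcl2, Cxcl3 and Cxcl10), against 482 of 32851 RefSeq promoters (1.47%). The STAT motif is in none of the 5 sequences and in 2726 of the 32851 (8.3%). A match describes letters in these windows and is not a measured site.

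In WT with IL-6, Cxcl5 was at 1010.0 and 968 FPKM, and KO held 0.793 and 0.636 (-9.17 ± 0.068, adjusted p = 1.27e-10). Cxcl1 was at 178 and 176 in WT and 0.266 and 0.138 in KO (-7.21 ± 0.07). Cxcl3 stood at 72.6 and 71.96 in WT and 0.178 and 0.0509 in KO (-6.04 ± 0.074), and Cxcl2 at 42.6 and 41.9 in WT and 0.106 and 0.0229 in KO (-5.35 ± 0.069). None of these 4 genes reached 1 FPKM in a KO library with IL-6. The groups did not overlap, as was so for 85.8% of all genes.

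Ccl2, Ccl5 and Ccl7 were lower in KO too, but none of them went below 8.53 FPKM there. Ccl2, which draws monocytes, was at 969 and 894 FPKM in WT and 75.8 and 75.5 in KO, a 12.3-fold difference (-3.6 ± 0.053, adjusted p = 2.3e-09). Ccl7, its neighbour in function, was at 369 and 328 in WT and 8.82 and 8.53 in KO (40.1-fold), and Ccl5, which draws T cells, at 555 and 526 in WT and 28.5 and 25.6 in KO (20-fold). Ccl20, the ligand of CCR6, was at 11.6 and 8.97 in WT and 0.363 and 0.52 in KO (-2.96 ± 0.17). Cxcl10, an interferon-induced chemokine, was at 655 and 521 in WT and 97.1 and 82.01 in KO (-2.7 ± 0.14; it overlaps the low Art3), and the membrane-bound Cx3cl1 at 14.9 ± 0.314 in WT and 2.83 ± 0.102 in KO. The groups did not overlap for any of them.

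Cxcl12, the homeostatic chemokine that holds stem and immune cells in their niche, went the other way. It was at 263 and 259 FPKM in WT and 576 and 579 in KO (1.14 ± 0.033, adjusted p = 5.76e-08), higher in both KO libraries. Its scavenger receptor Ackr3, the 1 chemokine receptor gene tested, was at 43.7 and 41.3 in WT and 2.15 and 2.38 in KO (-3.74 ± 0.063, adjusted p = 3.94e-09). Ligand and scavenger thus separated the cultures in opposite directions. The other chemokines higher in KO were low: Cxcl15 (0.0904 and 1.39 FPKM on average in WT and KO), Cxcl14 (0.396 in WT and 1.11 in KO) and Ccl25 (4.22 in WT and 5.71 in KO), which overlaps Elavl1. The Ccl25 call (adjusted p = 0.0478) was lost in 11 alternatives, among them the fits without KO library 2 with IL-6 (0.279) or WT library 1 with IL-6 (0.226).

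**Figure D2:**
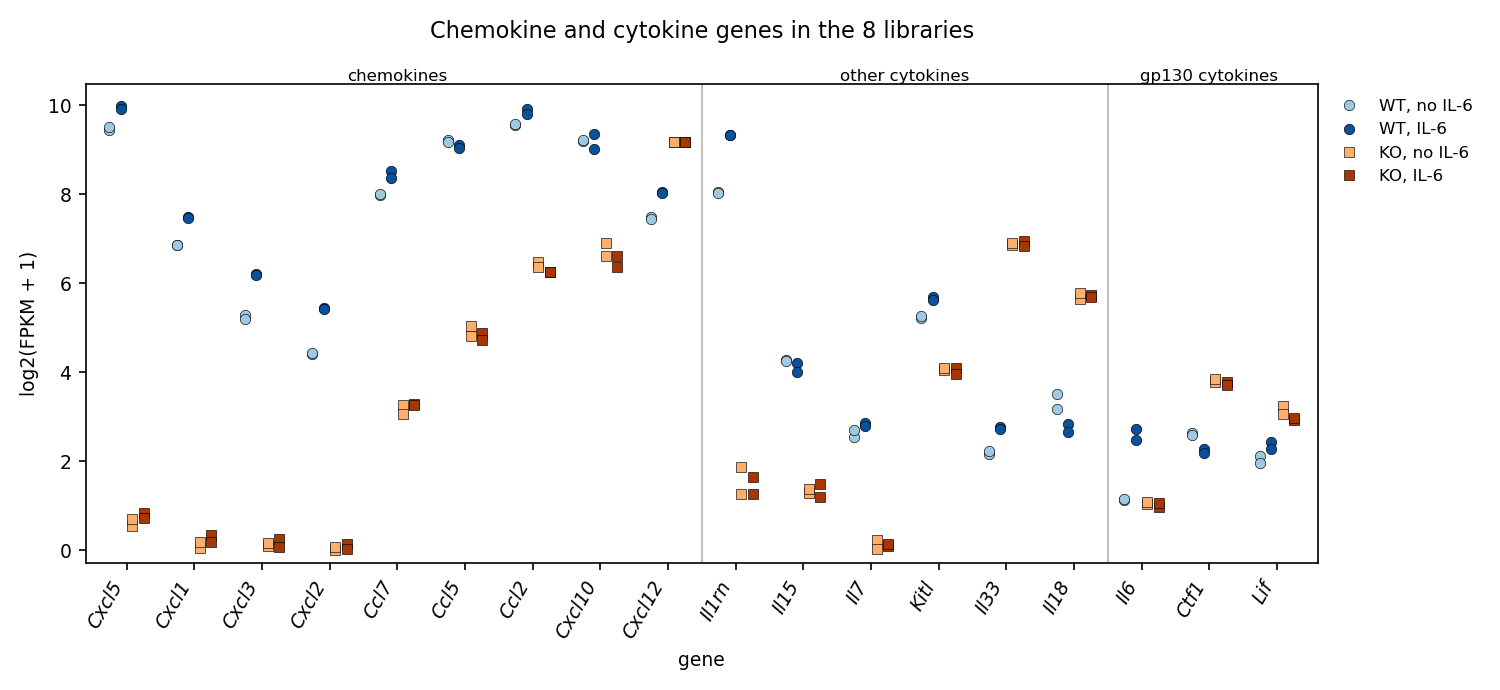
Level of 18 chemokine and cytokine genes, log2(FPKM + 1), in each of the 8 libraries (circles WT, squares KO; pale without and dark with IL-6). Cxcl5, Cxcl1, Cxcl3 and Cxcl2 at the left lie under 1 in all KO libraries, and Cxcl12, Il33, Il18, Ctf1 and Lif lie higher in KO than in WT.

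Of 16 other cytokine genes tested, all differed, 12 lower and 4 higher in KO, with a median of -1.40. Genes of the IL-1 family stood out at both ends. Il1rn, which encodes the secreted antagonist of the IL-1 receptor, was at 646 and 642 FPKM in WT and 2.12 and 1.38 in KO (-7.88 ± 0.19, adjusted p = 2.38e-08). Il33, an alarmin released from damaged cells, was at 5.81 and 5.62 in WT and 122 and 114 in KO (4.15 ± 0.051, adjusted p = 1.1e-09), and its receptor gene Il1rl1 (ST2) at 204 and 186 in WT and 0.76 and 1.12 in KO (-6.66 ± 0.11, adjusted p = 4.18e-09). The WT libraries thus held much of the receptor transcript and little of the ligand's, and the KO libraries the reverse. Il18 was likewise higher in KO (6.18 and 5.29 in WT and 52.1 and 50.4 in KO, 2.96 ± 0.12), while the signalling receptor Il1r1 was lower (17.1 ± 0.132 in WT, 7.74 ± 0.513 in KO).

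Il15, Il7, Tslp, Kitl, Tnfsf11 and Mif were among the 12 cytokine genes that were lower in KO. Il15 was at 17.5 and 15.1 FPKM in WT and 1.28 and 1.81 in KO (-2.77 ± 0.11), and Il15ra, the chain that presents it, at 5.77 and 3.63 in WT and 0.815 and 0.296 in KO (-1.87 ± 0.24). Il7, which T and B cell precursors need, was at 6.19 and 5.87 in WT and 0.0622 and 0.1 in KO (-2.7 ± 0.10); it overlaps the low Gm16685 on the opposite strand. Tslp, an epithelial-type alarmin, was at 5.09 ± 1.25 in WT and 1.04 ± 0.182 in KO, whereas its receptor chain Crlf2 (11.1 in WT and 11.7 in KO) did not pass (adjusted p = 0.559). Kitl, the ligand of Kit, was at 50.3 and 48.5 in WT and 16.1 and 14.7 in KO (-1.62 ± 0.053). Tnfsf11, which encodes RANKL, the osteoclast factor, was at 5.11 and 3.51 in WT and 0.363 and 0.311 in KO (-1.97 ± 0.16), and its decoy receptor Tnfrsf11b (osteoprotegerin) was lower as well, at 18.6 and 17.6 in WT and 2.01 and 2.06 in KO (-2.65 ± 0.067). Mif, an abundant macrophage factor, was at 1136 and 1087 in WT and 457 and 487 in KO (-1.24 ± 0.06). Higher in KO beside Il33 and Il18 were Csf1, the macrophage growth factor (0.29 ± 0.066, adjusted p = 0.00512), and Tnfsf13, a B-cell factor (0.789 in WT and 7.94 FPKM in KO), which shares exons with neighbouring genes and is uncertain.

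The gp130 cytokines did not move as a group. Of 6 genes tested, 3 were higher and 2 lower in KO. Il6 was at 5.61 and 4.59 FPKM in WT and 0.965 and 1.07 in KO, both KO libraries under both WT libraries (-1.59 ± 0.10, adjusted p = 4.23e-06). Ctf1, encoding cardiotrophin 1, was at 3.79 and 3.57 in WT and 12.6 and 12.1 in KO (1.51 ± 0.059), and Lif was at 4.38 and 3.85 in WT and 6.64 and 6.799 in KO (0.60 ± 0.093). Clcf1, encoding cardiotrophin-like cytokine, did not pass (adjusted p = 0.221). The lower level of Cntf (-0.28 ± 0.09, adjusted p = 0.0252) was lost without KO library 1 (0.0921), KO library 2 (0.0673) or WT library 2 with IL-6 (0.143), and Cntf shares exons with Zfp91.

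The receptors of the same family were lower in KO in 5 of 6 genes tested, 4 by at least 2-fold, with a median of -1.16. Il6ra, the chain that binds IL-6, was at 8.5 and 8.08 FPKM in WT and 1.57 and 1.71 in KO (-1.81 ± 0.068, adjusted p = 2.43e-07). Osmr, the oncostatin M receptor, stood at 53.7 and 52.1 in WT and 23.5 and 23.9 in KO (-1.12 ± 0.05), and Lifr, the receptor of Lif and cardiotrophin, at 23.1 and 19.4 in WT and 9.14 and 8.34 in KO (-1.19 ± 0.10). The shared chain Il6st was at 130.0 and 127 in WT and 84.5 and 87.8 in KO, a smaller gap (-0.57 ± 0.041, adjusted p = 9.09e-06). Il11ra1 was lower as well (-1.78 ± 0.058), but it overlaps Ccl27a and has near-identical copies in the mouse genome, so its level is uncertain. Il27ra, low in both genotypes, was the 1 gene of this list that was higher in KO (0.326 in WT and 1.56 FPKM in KO); it overlaps Palm3.

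Downstream of these receptors, 19 of 32 JAK and STAT pathway genes were lower in KO and 4 higher, with a median of -0.45. The share called, 71.9%, was near that of all genes (71.7%), and 25.0% differed by at least 2-fold, against 19.1%. Jak1, the kinase that gp130 mainly uses, was at 77.97 and 78.2 FPKM in WT and 35.9 and 34.9 in KO (-1.12 ± 0.035, adjusted p = 9.29e-08), while Jak2 (20.3 ± 1.44 in WT and 21.8 ± 0.0661 in KO) did not pass. Stat2, a transcription factor of the interferon response, was at 223 and 186 in WT and 60.6 and 55.96 in KO (-1.79 ± 0.094). Stat3 was at 63.8 and 61.95 in WT and 69.5 and 68.8 in KO (0.14 ± 0.037, adjusted p = 0.0123), a call that was lost without KO library 1 (0.0599) or WT library 2 with IL-6 (0.0657). Its neighbour on the opposite strand, Stat5a, was at 26.3 and 26.1 in WT and 7.73 and 7.39 in KO (-1.67 ± 0.062); exons of both genes overlap, so neither level is certain. Jak2 passed in the fit without WT library 1 with IL-6 (0.0429) and with equal totals (0.0291).

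The feedback inhibitors Socs1, Socs2 and Socs3 were lower in KO, and Socs5 was higher. Socs3 was at 60.3 and 57.5 FPKM in WT and 23.9 and 25.4 in KO (-1.22 ± 0.06, adjusted p = 1.06e-06), Socs2, an inhibitor of growth hormone signalling, at 29.2 and 24.1 in WT and 8.06 and 8.93 in KO (-1.54 ± 0.09), and Socs1 at 5.32 and 4.51 in WT and 0.9 and 0.818 in KO (-1.67 ± 0.094). Irf1, an interferon-induced transcription factor, was lower too (-1.22 ± 0.054; it overlaps the low Gm17334). The genes higher in KO were Stat3, Gab1, an adaptor between receptors and the Ras and PI3K pathways (8.03 ± 0.0914 in WT and 20.9 ± 0.0191 in KO, 1.28 ± 0.044), Socs5 (0.96 ± 0.055) and Jak3 (0.26 ± 0.078, adjusted p = 0.0184). This count of 4 was 2 without WT library 2, 7 without WT library 1 and 10 with equal totals; Jak3 failed without KO library 2 (0.103) or WT library 2 with IL-6 (0.0995).

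Growth factor ligands parted in both directions, 17 higher and 20 lower of 41 tested, 14 on each side by at least 2-fold. Fgf7, which fibroblasts make for epithelium, was at 90.5 and 89.9 FPKM in WT and 0.0946 and 0.0607 in KO (-6.4 ± 0.052, adjusted p = 2.14e-10), and Fgf10, of the same subfamily, at 5.61 and 5.77 in WT and listed at 0 in both KO libraries (-2.74 ± 0.077). Their epithelial-type receptor Fgfr2 was slightly higher in KO (18.3 ± 1.24 in WT and 24.7 ± 1.45 in KO, 0.42 ± 0.069; it shares exons with Ctbp2), whereas the mesenchymal Fgfr1 was lower, at 91.1 and 96.9 in WT and 22.8 and 20.3 in KO (-2.08 ± 0.10, adjusted p = 1.11e-06).

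Hgf, the scatter factor, and its receptor Met showed the same crossing. Hgf was at 4.63 and 4.51 FPKM in WT and 0.162 and 0.0782 in KO (-2.31 ± 0.11), and Met at 9.34 and 9.48 in WT and 88.1 and 86.8 in KO (3.09 ± 0.051, adjusted p = 3.72e-09). Mst1r, the other receptor of this family, was also higher in KO (0.66 and 0.419 in WT and 19.4 and 20.6 in KO, 3.77 ± 0.11). Angpt1, a ligand that steadies vessels, was at 5.26 and 4.399 in WT and 0.0184 and 0 in KO, and its receptor Tek at 0.0127 and 0.00625 in WT and 9.36 and 9.55 in KO. Vegfc and Vegfd, the lymphatic growth factors, were lower in KO (33.3 ± 1.64 in WT and 2.11 ± 0.0422 in KO; 35.8 ± 1.09 in WT and 4.09 ± 0.0207 in KO) and their receptor Flt4 was higher (1.57 ± 0.0523 in WT and 11.4 ± 0.205 in KO). In each of these ligand and receptor sets the WT libraries held more of the ligand and the KO libraries more of the receptor. No ligand of Mst1r is shown, and Vegfa, a ligand of the VEGF family, was higher in KO (0.64 ± 0.072). Met, Angpt1, Vegfc, Vegfd and Flt4 were named after their values were seen. The sets are thus picked examples, and no crossing of ligands and receptors in general is read from them. Tek is also 1 of 10 endothelial markers. They summed to 23.9 FPKM in KO and 15.4 to 16.9 in WT, with Tie1 and Cldn5 at 0 in both groups, and their part in the level of Tek was not tested.

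Pdgfb, the PDGF ligand shown here, and the PDGF receptors were crossed the other way. Pdgfb was named after its value was seen, and the other PDGF ligands are not reported here. Pdgfb was at 0.606 and 0.479 FPKM in WT and 8.29 and 8.16 in KO (2.58 ± 0.085), while Pdgfra, a receptor that marks mesenchyme, was at 52.4 and 48.9 in WT and 8.85 and 8.59 in KO (-2.41 ± 0.083, adjusted p = 1.59e-07) and Pdgfrb at 48.1 and 48.1 in WT and 7.19 and 7.13 in KO (-2.59 ± 0.046, adjusted p = 5.03e-09). The receptor transcripts were thus lower in KO where a ligand transcript was higher. Gas6, the ligand of the TAM receptors, was at 2.52 and 2.497 in WT and 55.4 and 57.5 in KO (4.03 ± 0.045, adjusted p = 6.96e-10). Of its receptors, Mertk was higher in KO at a low level (0.29 ± 0.0265 in WT and 2.94 ± 0.197 in KO), and Axl (110.1 ± 6.23 in WT and 126 ± 2.38 in KO, 0.20 ± 0.054) lost its call without KO library 2 (0.0662) or WT library 2 with IL-6 (0.0762).

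Both insulin-like growth factor ligands and the receptor Igf1r were higher in KO. Igf1 was at 0.818 and 1.497 FPKM in WT and 13.3 and 11.9 in KO (2.68 ± 0.14), Igf2, an imprinted fetal growth factor, at 0.0436 and 0.0758 in WT and 10.04 and 9.61 in KO (3.35 ± 0.092), and the receptor Igf1r at 4.42 and 4.21 in WT and 9.99 and 11.2 in KO (1.13 ± 0.068). Of 12 IGF-binding and CCN proteins tested, 7 were higher and 3 lower, with a median of 1.08. Igfbp4, a carrier that holds IGFs back, was at 35.8 and 31.8 in WT and 393 and 410.5 in KO (3.53 ± 0.06, adjusted p = 4.12e-09), and Igfbp2 at 0.629 and 0.4 in WT and 7.97 and 6.42 in KO (2.43 ± 0.12). Igfbp3 was at 38.8 ± 1.86 in WT and 93.7 ± 1.89 in KO, and Igfbp6 at 66.2 ± 3.1 in WT and 124 ± 12.1 in KO. These 4 carriers were higher in both KO libraries, while Igfbp7 was lower (-0.42) and Igfbp5 did not pass (0.02).

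The CCN proteins, matrix-bound signals, split. Ccn2, the connective-tissue growth factor, was at 9.96 and 11.3 FPKM in WT and 81.7 and 84.2 in KO (2.86 ± 0.066, adjusted p = 2.02e-08), and Ccn1 (46.2 ± 2.24 in WT and 114 ± 1.41 in KO) and Ccn4 (18.6 ± 1.03 in WT and 70.1 ± 1.7 in KO) were higher too. Ccn5, which lacks the C-terminal domain of the other CCN proteins, was at 506 and 481 in WT and 0.76 and 0.947 in KO (-8.06 ± 0.095, adjusted p = 8.86e-10), and Ccn3 at 133 and 119.7 in WT and 3.85 and 4.19 in KO (-4.67 ± 0.073). Igfbp7 was the other gene of the list on that side (-0.42 ± 0.042), and it overlaps Polr2b.

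The EGF receptor and the ligand shown here lay on opposite sides, and its other ligands are not reported here. Ereg, an EGF receptor ligand, was at 17.4 and 16.5 FPKM in WT and 0.543 and 0.549 in KO (-3.54 ± 0.075), and it overlaps the low Gm19610. Egfr itself was higher in KO (11.5 ± 0.98 in WT and 20.7 ± 0.591 in KO, 0.80 ± 0.063), and Errfi1, the intracellular inhibitor of that receptor, was lower, at 72.1 and 67.7 in WT and 7.57 and 6.77 in KO (-3.12 ± 0.08). Vegfa was higher in KO (30.1 ± 1.36 in WT and 47.3 ± 1.8 in KO, 0.64 ± 0.072), and Angptl4, a lipase inhibitor, was lower (42.4 and 36.97 in WT and 2.3 and 2.601 in KO, -3.56 ± 0.082). Among the 32 receptor tyrosine kinases tested, 18 were higher and 12 lower in KO. The collagen receptors Ddr1 and Ddr2 lay on opposite sides, Ddr1 at 22.7 ± 0.0259 in WT and 164 ± 8.72 in KO and Ddr2, with the low 3110045C21Rik on its opposite strand, at 46.3 ± 0.0369 in WT and 15.3 ± 0.499 in KO.

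**Figure D3:**
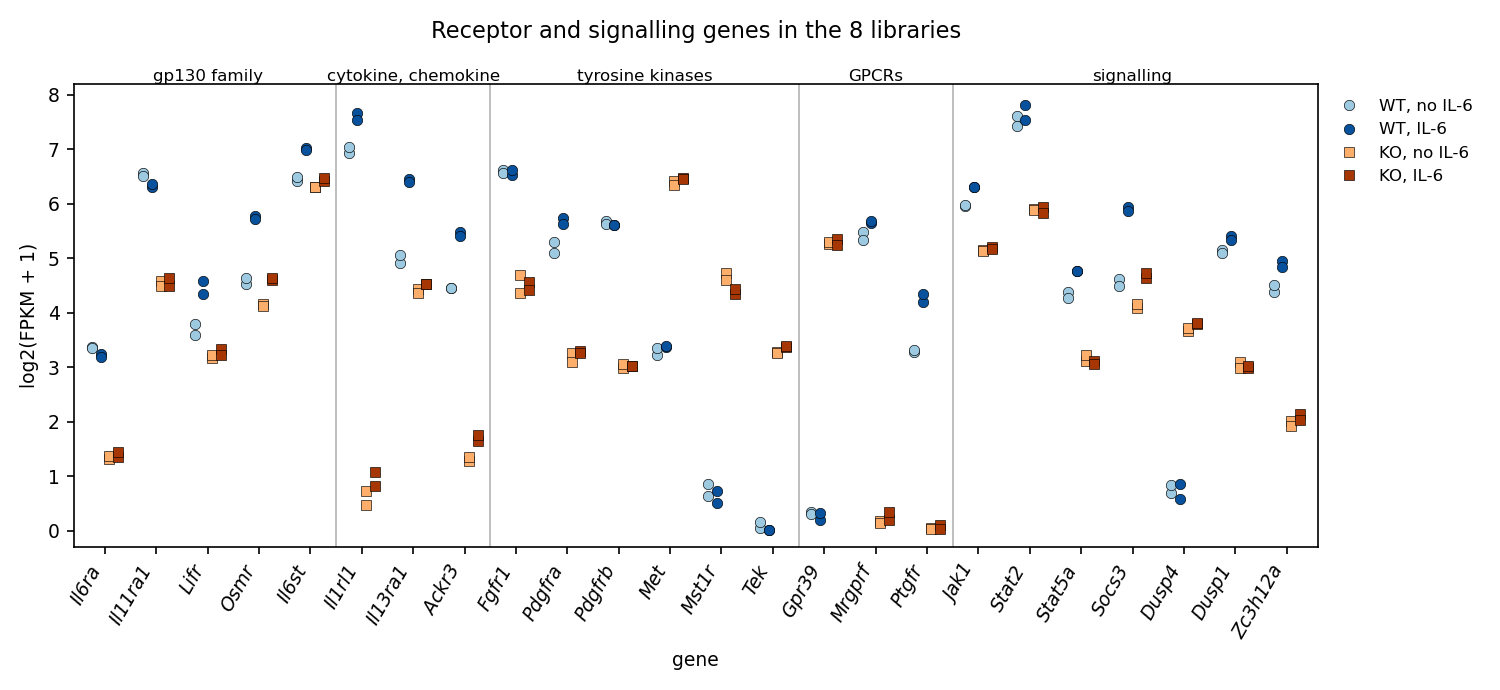
Level of 24 receptor and signalling genes, log2(FPKM + 1), in each of the 8 libraries (circles WT, squares KO; pale without and dark with IL-6). Il1rl1, Mrgprf and Ptgfr lie at the bottom of the scale in KO, Mst1r, Tek, Gpr39 and Dusp4 in WT, and Met is higher in KO.

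In the TGF-beta and BMP family, 11 of 30 ligand and antagonist genes were higher in KO and 16 lower. Bmp2 was at 0.173 and 0.163 FPKM in WT and 18.5 and 19.97 in KO (4.11 ± 0.069, adjusted p = 3.9e-09), Tgfb2 at 2.38 and 2.24 in WT and 23.04 and 23.5 in KO (2.87 ± 0.056), and Ltbp4, which stores latent TGF-beta in the matrix, at 2.09 and 2.35 in WT and 33.4 and 38.9 in KO (3.53 ± 0.081). Tgfb3 (24.2 ± 0.0279 in WT and 53.7 ± 0.463 in KO) and Bmp4 (41.3 ± 4.15 in WT and 96.7 ± 5.27 in KO) were higher as well. The BMP antagonist Grem1 was lower, at 153 and 136 in WT and 11.02 and 11.3 in KO (-3.58 ± 0.058). Gdf5, a joint-forming BMP, was at 9.004 and 9.57 in WT and listed at 0 in both KO libraries, and Gdf7 at 4.06 and 3.83 in WT and 0 and 0.0175 in KO. The activin antagonist Fst was higher in KO (8.99 ± 0.0688 in WT and 14.2 ± 0.287 in KO, 0.61 ± 0.097), so antagonists lay on both sides.

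Receptors of this family rarely differed by 2-fold, with 5 higher and 7 lower of 14 and 1 gene past 2-fold. That gene was Tgfbr3, the co-receptor betaglycan, at 55.4 and 55.9 FPKM in WT and 4.51 and 5.24 in KO (-3.27 ± 0.087). Tgfbr1 was at 6.7 ± 0.062 in WT and 13.9 ± 0.404 in KO. Of 39 SMAD and beta-catenin pathway genes, 18 were higher and 15 lower. Id1, a direct BMP target, was at 24.9 and 28.3 in WT and 150.4 and 169.8 in KO (2.55 ± 0.079, adjusted p = 8.59e-08), and the inhibitory Smad7 was higher too (5.26 ± 0.0896 in WT and 13.4 ± 0.181 in KO, 1.2 ± 0.084).

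Wnt ligands and their modulators were found on both sides. Wnt10b, a canonical ligand, was at 42.7 and 45.3 FPKM in WT and 1.45 and 1.52 in KO (-4.18 ± 0.065), and the R-spondins Rspo3 (18.1 and 17.2 in WT and 1.74 and 1.89 in KO, -2.73 ± 0.073) and Rspo2 (3.58 in WT and 0.0299 in KO) were lower, while Rspo1 was higher (9.89 ± 0.899 in WT and 48.8 ± 1.5 in KO). Wnt4 was at 0.0507 and 0.0684 in WT and 10.5 and 11.5 in KO (3.5 ± 0.077), Wnt5a, a non-canonical ligand, at 4.01 and 3.64 in WT and 22.9 and 23.9 in KO (2.34 ± 0.064), and Wnt9a (1.94) and Wnt11 (1.91) were higher too. Secreted antagonists took both directions: Dkk3 was at 34.96 and 33.5 in WT and 0.337 and 0.382 in KO (-4.69 ± 0.068), Sfrp4 at 0.436 and 0.399 in WT and 10.6 and 8.92 in KO (2.92 ± 0.097) and Sfrp1 at 13.9 and 11.9 in WT and 32.6 and 33.1 in KO (1.29 ± 0.071). Of 18 genes tested, 8 were higher and 7 lower. Axin2, a Wnt target, was lower in KO, at 3.8 ± 0.298 in WT and 1.13 ± 0.173 in KO, as were Notum, a secreted Wnt inhibitor, at 5.46 ± 0.0866 in WT and 0.425 ± 0.0716 in KO, and the inhibitor Nkd2 at 19.4 and 17.9 in WT and 0.384 and 0.35 in KO (-3.84 ± 0.086). Among receptors, Fzd4 was higher (0.546 in WT and 6.06 in KO) and Fzd1 lower (39.6 ± 0.649 in WT and 17 ± 0.164 in KO).

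Among 24 Frizzled, Notch and hedgehog receptors 9 were higher and 9 lower (75% called, against 71.7% of all genes). For the Notch pathway, Jag1, a Notch ligand, was at 0.545 ± 0.11 FPKM in WT and 5.98 ± 0.125 in KO, Hes1, a Notch target, at 5.21 and 4.63 in WT and 19.2 and 18.6 in KO (1.75 ± 0.071), and Rbpj, the DNA-binding partner of Notch, was lower at 87.3 and 83.4 in WT and 15.8 and 17.6 in KO (-2.29 ± 0.056). Smo, the hedgehog signal transducer, was higher (19.9 ± 0.356 in WT and 58.8 ± 0.956 in KO), and Ptch1, receptor and target of hedgehog, was lower (13.3 ± 0.0882 in WT and 5.46 ± 0.354 in KO).

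Guidance molecules, which steer axons and migrating cells, leaned to the higher side at the receptors, with 15 higher and 8 lower of 26 and a median of 0.61. Plxna4, a semaphorin receptor, was at 0.0281 and 0.0177 FPKM in WT and 25.4 and 26.3 in KO (4.71 ± 0.062, adjusted p = 1.42e-09), Plxnb1 at 0.875 and 1.02 in WT and 17.2 and 18.2 in KO (3.26 ± 0.079), and the netrin receptor Unc5b at 11.2 and 11.3 in WT and 89.97 and 97.9 in KO (2.95 ± 0.054). Its ligand Ntn1 was lower, at 13.8 and 12.97 in WT and 0.701 and 0.605 in KO (-3.12 ± 0.069). Nrp2, which binds class 3 semaphorins and VEGF-C, was lower (56.8 ± 0.23 in WT and 23.7 ± 0.328 in KO), whereas the semaphorins Sema3d (3.76 and 3.56 in WT and 45.9 and 47.9 in KO, 3.36 ± 0.051) and Sema6d (0.0685 in WT and 6.71 in KO) and the ephrin Efnb1 (1.97 and 1.78 in WT and 32.2 and 34.96 in KO, 3.59 ± 0.076) were higher. The ephrin-B receptor Ephb2 was lower (15.6 ± 0.693 in WT and 6.11 ± 0.161 in KO), and Slit2 (47.9 ± 1.85 in WT and 46.3 ± 0.492 in KO) did not pass. Of 29 guidance ligands, 13 were higher and 11 lower.

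Complement and acute-phase genes were lower in KO in 20 of 29 tested and higher in 7, with a median of -0.71. Saa3, an acute-phase serum amyloid, was at 629 and 560.3 FPKM in WT and 7.805 and 8.801 in KO (-6.0 ± 0.096, adjusted p = 3.32e-09), and Lcn2, which encodes lipocalin 2, at 229 and 201 in WT and 0.418 and 0.851 in KO (-7.06 ± 0.12, adjusted p = 4.38e-09). Ptx3, a pentraxin that marks microbes, was at 351 and 345 in WT and 80.7 and 80.5 in KO (-2.1 ± 0.046), and Serping1, the C1 inhibitor, at 171 and 152 in WT and 23.9 and 23.4 in KO (-2.72 ± 0.06). Kng1, encoding kininogen, the source of bradykinin, was at 12.9 and 11.4 in WT and 0.27 and 0.0856 in KO (-3.48 ± 0.11), and Bdkrb1, an inducible kinin receptor, at 3.38 and 2.56 in WT and 0.0355 and 0.0304 in KO (-1.93 ± 0.12).

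Cfb and C3, which act in the alternative complement pathway, were lower in KO. Cfb was at 16.7 and 11.97 FPKM in WT and 1.37 and 1.08 in KO (-2.77 ± 0.15), and C3 at 180.2 and 149 in WT and 93.9 and 95.6 in KO (-0.78 ± 0.085). Genes at least 2-fold higher in KO included Clu, encoding the chaperone clusterin (12.8 ± 0.0255 in WT and 59.5 ± 0.753 in KO), Apoe (1.91 ± 0.0911 in WT and 5.37 ± 1.18 in KO) and C2 (0.791 in WT and 7.31 in KO), which overlaps Zbtb12 and is uncertain. Hp, encoding haptoglobin, was 1.78-fold higher (8.42 and 8.11 in WT and 14.6 and 14.9 in KO).

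Of 45 matrix proteases and inhibitors tested, 22 were higher and 19 lower, and 18 of the higher ones differed by at least 2-fold. Mmp2, the gelatinase, was at 7.17 and 6.52 FPKM in WT and 244 and 257 in KO (5.01 ± 0.052, adjusted p = 4.66e-10), Adamts9, which cleaves proteoglycans, at 0.873 and 0.697 in WT and 18.3 and 19.3 in KO (3.47 ± 0.072), and Tfpi, the inhibitor of tissue factor, at 0 and 0.00897 in WT and 41.1 and 38.2 in KO (5.34 ± 0.072). Mmp13 (7.07 ± 0.638 in WT and 16 ± 0.538 in KO) was higher too. Lower in KO were Mmp3 (11 ± 0.733 in WT and 1.89 ± 0.0787 in KO), the sheddase Adam8 (16.6 and 17.4 in WT and 0.365 and 0.518 in KO), Timp1 (339 and 335 in WT and 189.8 and 187 in KO, -0.84 ± 0.034), which inhibits matrix proteases, and Serpinf1, an anti-angiogenic serpin (299 ± 8.72 in WT and 45.8 ± 4.86 in KO). With IL-6, a gelatinase transcript was thus higher where that of an inhibitor, Timp1, was lower. Without IL-6, both Mmp2 (4.99 ± 0.052) and Timp1 (0.47 ± 0.034) were higher in KO. They are single members of a divided list, and no balance of proteases and inhibitors is read from them.

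Peptide hormones and vasoactive peptides were divided, 9 higher and 9 lower of 19. Penk, the enkephalin precursor, was at 226 and 204 FPKM in WT and 0.0588 and 0.0815 in KO (-7.65 ± 0.059, adjusted p = 1.57e-10), Adm, the vasodilator adrenomedullin, at 39.05 and 37.2 in WT and 0.494 and 0.141 in KO (-4.91 ± 0.12), Apln, encoding apelin, at 21.8 and 21.2 in WT and 0.478 and 0.459 in KO (-3.94 ± 0.096), and Postn, a secreted matricellular protein, at 520.3 and 482 in WT and 7.75 and 9.32 in KO (-5.72 ± 0.08). Edn1, which encodes the vasoconstrictor endothelin 1, was higher, at 0.764 and 0.548 in WT and 14.5 and 14.8 in KO (3.24 ± 0.11). Of the genes shown, the vasodilator transcripts Adm and Apln thus lay lower and the vasoconstrictor transcript Edn1 higher in KO. They are single members of a divided list, and Apln was named after its values were seen. No direction of vasodilator genes in general is read from them. Fam3c, encoding a cytokine-like protein, was higher as well (28.5 ± 0.922 in WT and 106 ± 2.89 in KO).

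TNF receptor superfamily and Toll-like receptor genes were lower in 12 and higher in 3 of 23 tested (65.2% called, under the 71.7% of all genes), and the 3 became 5 with equal totals. Tlr2, a receptor for bacterial lipoproteins, was at 39.8 and 37.7 FPKM in WT and 5.54 and 6.15 in KO (-2.54 ± 0.059, adjusted p = 2.08e-08), and its co-receptor Cd14 at 31.98 and 32.6 in WT and 2.87 and 2.801 in KO (-3.12 ± 0.052), while Tlr4 (8.07 ± 0.756 in WT and 7.62 ± 0.504 in KO) did not pass. The death receptor Fas was lower (25.2 ± 2.06 in WT and 7.82 ± 0.303 in KO, -1.57 ± 0.11). Tnfrsf1b (30.6 ± 0.948 in WT and 31.3 ± 0.0981 in KO) did not pass. Tnfrsf1a (105 ± 2.77 in WT and 107 ± 2.94 in KO) passed with equal totals alone (0.12, adjusted p = 0.0411).

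Of 24 other cytokine receptor genes tested, 11 were lower and 7 higher in KO. The share called, 75.0%, was near that of all genes (71.7%), and 33.3% differed by at least 2-fold, against 19.1%. Besides Il1rl1, Il15ra and Il1r1, Il13ra1, a chain of the IL-4 and IL-13 receptor, was at 86.7 and 83.4 FPKM in WT and 22.1 and 22.2 in KO (-1.89 ± 0.06, adjusted p = 9.46e-08), and the decoy Il13ra2 at 1.37 on average in WT and listed at 0 in KO. Il4ra, the partner of Il13ra1, did not pass (17.8 ± 1.18 in WT and 17.5 ± 0.947 in KO). On the higher side, Il22ra1, a receptor chain for IL-22, was at 0.0213 and 0 in WT and 5.996 and 6.24 in KO (2.82 ± 0.075), and Ifnlr1, of the type III interferons, at 0.198 in WT and 2.77 in KO. Epor (0.409 in WT and 1.85 in KO) was the third gene at least 2-fold higher. The 8 epithelial markers summed to 68.1 to 68.9 FPKM in KO and 1.48 to 1.87 in WT, of which Krt14 made up 61.9 on average in KO, while Krt5 was at 0 in both groups. Their part in these receptors was not tested.

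G-protein-coupled receptors were lower in 31 of 50 tested and higher in 15, with a median of -0.79. Gpr39, a zinc-sensing receptor, was at 0.143 and 0.255 FPKM in WT and 39.7 and 37.1 in KO (5.04 ± 0.071, adjusted p = 1.85e-09); it overlaps Lypd1 on the opposite strand. Avpr1a, a vasopressin receptor, was listed at 0 in both WT libraries and at 5.12 and 5.37 in KO. The sphingosine 1-phosphate receptors crossed, S1pr1 at 16.5 and 15.9 in WT and 0.391 and 0.557 in KO (-3.55 ± 0.09) and S1pr5 at 0.295 and 0.355 in WT and 7.47 and 7.13 in KO (2.65 ± 0.088). Mrgprf was at 49.1 and 50.6 in WT and 0.144 and 0.279 in KO (-5.39 ± 0.08), and Ptgfr, the receptor of prostaglandin F2alpha, at 17.3 and 19.4 in WT and 0.074 and 0.0231 in KO (-4.21 ± 0.081), with the low Gm43618 on its opposite strand.

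Of 12 genes of prostaglandin synthesis, 5 were higher and 6 lower. Ptgis, which makes prostacyclin, was at 0.797 and 0.916 FPKM in WT and 180.2 and 179 in KO (6.61 ± 0.071, adjusted p = 5.62e-10), and Ptges, which makes prostaglandin E2, at 28.2 and 28.6 in WT and 0.34 and 0.283 in KO (-4.49 ± 0.11, adjusted p = 2.57e-08). The cyclooxygenases upstream of both divided as well: the constitutive Ptgs1 was at 29.7 and 29.97 in WT and 90.7 and 91.5 in KO (1.58 ± 0.034) and the inducible Ptgs2 at 19.2 and 17.5 in WT and 5.22 and 4.65 in KO (-1.7 ± 0.085). KO libraries were higher for Ptgs1 and Ptgis, and WT libraries for Ptgs2 and Ptges. The uptake carrier Slco2a1 was lower in KO (26.3 ± 0.46 in WT and 12.1 ± 0.934 in KO).

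In the MAP kinase cascade 18 of 53 genes were higher and 25 lower (81.1% called, against 71.7% of all genes). The median size of a difference was 0.53, against 0.40 over all genes, and 15.1% differed by at least 2-fold, against 19.1%. Map2k1 and Map2k2, which encode Mek1 and Mek2, were both lower: Map2k1 was at 70.3 and 69.1 FPKM in WT and 51.1 and 50.2 in KO (-0.45 ± 0.037), and Map2k2 at 139 and 149.7 in WT and 79.5 and 90.3 in KO (-0.76 ± 0.093). Mapk3 (Erk1) was slightly lower (-0.17 ± 0.046, adjusted p = 0.011), a call lost without KO library 1 (0.0714) or WT library 2 with IL-6 (0.0619) and with equal totals (0.117). Larger gaps were seen for single genes of the list, picked by their size. Mapk13, a p38 kinase, was at 15.5 and 14.2 in WT and 0.151 and 0.336 in KO (-3.67 ± 0.12). Mapk12, another p38 kinase, was at 6.16 and 5.47 in WT and 21.1 and 22.1 in KO (1.73 ± 0.074). Map3k8 (Tpl2), which couples Toll-like receptors to Mek, was at 12.4 and 11.7 in WT and 1.91 and 1.85 in KO (-2.18 ± 0.088). Map3k5, a stress kinase, was at 4.69 and 4.66 in WT and 21.9 and 22.6 in KO (2.04 ± 0.061).

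Feedback inhibitors of the cascade parted much more, with 48.1% of 27 genes past 2-fold, 7 higher and 6 lower. The phosphatases Dusp4 (0.804 and 0.507 FPKM in WT and 12.8 and 13.1 in KO, 3.08 ± 0.10), Dusp5 (2.45 and 2.35 in WT and 13.8 and 12.97 in KO, 2.08 ± 0.087) and Dusp6 (10.2 and 9.28 in WT and 28.9 and 28.4 in KO, 1.47 ± 0.081), which act on Erk, were higher in KO, as were Spry1 (1.14 in WT and 4.75 in KO) and Spry2 (3.39 in WT and 8.34 in KO). Dusp1, which prefers p38 and JNK, was lower, at 41.3 and 39.7 in WT and 6.89 and 7.13 in KO (-2.37 ± 0.056; it overlaps Ergic1), and so was Rasa3, a Ras inhibitor (42.6 and 43.4 in WT and 8.15 and 8.19 in KO, -2.26 ± 0.044). Transcripts of Erk phosphatases were thus higher while that of Mapk3 differed little.

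In the NF-kappaB pathway 28 of 41 genes were lower in KO and 9 higher, 11 and 2 of them by at least 2-fold. The lower genes included inhibitors that NF-kappaB itself induces: Nfkbia was at 137 and 133 FPKM in WT and 34.9 and 35.5 in KO (-1.91 ± 0.034, adjusted p = 5.29e-09), and Zc3h12a (Regnase-1), an RNase that degrades Il6 RNA and acts against Arid5a, at 29.8 and 27.9 in WT and 3.43 and 3.08 in KO (-2.81 ± 0.075, adjusted p = 4.2e-08). Nfkbiz, a nuclear co-activator of Il6 and Lcn2, was at 30.6 and 30.1 in WT and 6.19 and 6.03 in KO (-2.14 ± 0.049), and Irak3, an inhibitory kinase that overlaps Tmbim4, at 14.4 and 14.2 in WT and 2.21 and 1.803 in KO (-2.35 ± 0.09). Traf4 (15.6 ± 0.014 in WT and 34.1 ± 1.45 in KO) and Irak2 (4.897 and 4.55 in WT and 19.7 and 19.02 in KO, 1.83 ± 0.058) were the 2 genes at least 2-fold higher.

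Of 30 PI3K and Akt genes, 12 were higher and 15 lower. Sgk1, a kinase related to Akt, was at 127 and 131 FPKM in WT and 26.6 and 27.4 in KO (-2.22 ± 0.056), Pik3r5, a regulatory subunit, at 6.28 and 6.57 in WT and 0.265 and 0.208 in KO (-2.59 ± 0.082), and Irs2, an insulin and IGF adaptor, was higher at 5.79 and 5.35 in WT and 23.97 and 24.6 in KO (1.95 ± 0.061). Among 57 G-protein signalling genes, 26 were higher and 29 lower. Gnai1, an inhibitory G-protein subunit, was at 1.33 and 1.34 in WT and 30.04 and 30.2 in KO (3.74 ± 0.059), Plce1, a phospholipase C, at 1.22 and 1.13 in WT and 20.5 and 19.9 in KO (3.29 ± 0.12), and on the lower side stood the protein kinase A subunit Prkar1b (25.9 and 26.8 in WT and 1.78 and 1.54 in KO, -3.36 ± 0.078) and the phosphodiesterase Pde8a (12 ± 0.446 in WT and 0.999 ± 0.0174 in KO, -2.7 ± 0.063).

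Most of these differences were also there without IL-6. In the untreated libraries 9716 of 13693 genes differed (71%). Of the 660 secreted, receptor and signalling genes that differed with IL-6, 608 differed in the same direction without it (92.1%), which is 93.7% of the 649 that differed without IL-6. Over all genes these shares were 87.2% and 88.0%. Of the 357 that differed by at least 2-fold with IL-6, 354 had a called difference in the same direction without it (99.2%), against 98.6% of all such genes. Untreated WT held 700.0 and 729 FPKM of Cxcl5 and untreated KO 0.452 and 0.619, and Il33 at 3.46 and 3.68 in untreated WT and 115 and 118 in untreated KO.

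Whether a genotype difference changed with IL-6 was tested as the difference between both genotype differences, with IL-6 minus without. Over all genes 830 passed (6.06%), and of the secreted, receptor and signalling genes 153 of 755 (20.3%). This share was 30.9% for secreted, 16.5% for receptor and 13.1% for signalling genes. Of the 153, 80 had a larger difference with IL-6, 46 a smaller one and 5 the opposite direction, 11 were called with IL-6 alone and 11 without IL-6 alone. In percent these are 52.3, 30.1, 3.27, 7.19 and 7.19, against 47.0, 25.8, 5.66, 11.9 and 9.64 of the 830. The 830 became 409 and 396 without KO library 1 or 2 with IL-6, 430 and 383 without KO library 1 or 2 without IL-6, 447 and 470 without WT library 1 or 2 with IL-6, and 523 and 442 without WT library 1 or 2 without IL-6. With library totals made equal, 478 were higher and 390 lower, against 348 (2.54%) and 482 (3.52%) as deposited. Of the 153 calls, 70 held in all 16 alternatives run on the same genes (transcripts and the filter of 5 FPKM set aside). The genes given below as having passed it are among these 70 except Lcn2 and Cxcl3.

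With IL-6 against without, 2150 of 13693 genes passed in WT (15.7%) and 3 in KO (0.0219%). Both counts come from the main fit alone, as the alternatives were not run on them. The 3 are Igfbp3 (0.86 ± 0.05), Spp1, encoding the cytokine osteopontin (0.58 ± 0.034), and the transcription factor gene Cebpd (0.69 ± 0.063). Cebpd overlaps Spidr on the opposite strand and is uncertain. Spp1 and Cebpd are named for that count after their values were seen. The IL-6 changes share libraries with the genotype differences, and both are given side by side. Socs3, the STAT3 target, changed by 1.35 ± 0.06 in WT (adjusted p = 2.87e-05) and by 0.55 ± 0.06 in KO (adjusted p = 0.0774). Osmr changed by 1.17 ± 0.05 in WT and by 0.49 ± 0.05 in KO (adjusted p = 0.0706 in KO). A gene that missed the threshold in KO is thus not shown to be unchanged there. Saa3 changed by 2.09 ± 0.096 in WT and 0.55 ± 0.096 in KO, and Igfbp3 by 1.5 ± 0.05 in WT.

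Il6, Tnfsf11 and Sema3c were called between the genotypes with IL-6 and not without it. Untreated WT held 1.19 and 1.22 FPKM of Il6 and untreated KO 1.04 and 1.11, values that did not pass (adjusted p = 0.454), against 5.61 and 4.59 in WT and 0.965 and 1.07 in KO with IL-6, so its difference moved by -1.5 ± 0.14 (adjusted p = 0.00186). Tnfsf11 moved from -0.20 ± 0.16 to -1.97 ± 0.16 (-1.77 ± 0.22, adjusted p = 0.00512). Sema3c, a semaphorin, was at 89.8 and 89.4 in untreated WT, 95.3 and 85.5 in untreated KO, 40.98 and 38.1 in WT with IL-6 and 93.3 and 96.4 in KO with IL-6 (1.23 ± 0.084, adjusted p = 0.000598). For Sema3c the WT libraries with IL-6 stood apart from the other 6, below them.

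Timp1 changed sides. It was higher in untreated KO (155 and 160.2 FPKM, against 113 and 115 in WT) and lower in KO with IL-6 (189.8 and 187 against 339 and 335), a move of -1.3 ± 0.048 (adjusted p = 9.04e-05). Wnt16 was higher in untreated KO (1.15 ± 0.081) and did not differ past the threshold with IL-6 (-0.09 ± 0.081), and Igfbp5, lower in untreated KO (-0.99 ± 0.093), did not with IL-6 either (0.02 ± 0.093).

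Of the 29 complement and acute-phase genes, 12 passed the difference of differences. The gap was larger with IL-6 for 7 that were already lower in KO. Among these, it moved by -1.54 ± 0.14 for Saa3 (adjusted p = 0.00157), -2.25 ± 0.16 for Kng1, -1.34 ± 0.066 for Ptx3, -0.95 ± 0.084 for Serping1 and -1.43 ± 0.17 for Lcn2, and with a pseudocount of 0.1 the Lcn2 call was lost (-0.62, adjusted p = 0.368), as was that of Cxcl3 (main value -0.93 ± 0.10; -0.85, adjusted p = 0.267). C3 (-0.05 ± 0.12) and Cfb (-0.42 ± 0.22), also lower in KO, did not pass. Of the gp130 family receptors 3 of 6 passed, and of the other cytokine receptors 5 of 24: Il13ra1 moved by -1.3 ± 0.084, Osmr by -0.69 ± 0.071, Il6st by -0.42 ± 0.058, and Il1r1 by -0.82 ± 0.11, while Il6ra (0.20 ± 0.096), Il11ra1 (0.22 ± 0.082) and Il15ra (-0.02 ± 0.34) did not pass. Socs3 moved by -0.80 ± 0.085, and Socs1 (0.08 ± 0.13) and Socs2 (0.14 ± 0.13) did not pass. Growth factors and antagonists with a larger gap were Angptl4 (-1.7 ± 0.12), Ereg (-1.52 ± 0.11), Rspo3 (-1.1 ± 0.10), Ccn3 (-0.85 ± 0.10) and Grem1 (-0.72 ± 0.082). On the side of genes higher in KO, Tgfb2 (0.75 ± 0.079), Tgfb3 (0.64 ± 0.053) and Ccn2 (0.96 ± 0.094) had a larger gap.

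The difference was smaller with IL-6 for several genes that were higher in KO. Untreated WT held 0.761 and 1.29 FPKM of Hp and untreated KO 11.8 and 12.9, against 8.42 and 8.11 in WT and 14.6 and 14.9 in KO with IL-6 (-1.96 ± 0.17, adjusted p = 0.00125). Igfbp4 moved by -1.28 ± 0.085, Igfbp3 by -0.64 ± 0.071, Il33 by -0.54 ± 0.073, Cxcl12 by -0.58 ± 0.046, Vegfa by -0.77 ± 0.10 and Fst by -1.2 ± 0.14. Sfrp1 (-1.01 ± 0.10), Mmp13 (-1.2 ± 0.12), Dusp6 (-0.82 ± 0.12) and Stat3 (-0.42 ± 0.052) did likewise. Among genes lower in KO, the gap narrowed for Gdf7, at 17.9 and 17.2 in untreated WT and 4.06 and 3.83 in WT with IL-6 (1.91 ± 0.10), for Hpgd, which degrades prostaglandins (2.06 ± 0.15), and for the Wnt receptor Fzd1 (0.68 ± 0.054).

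**Figure D4:**
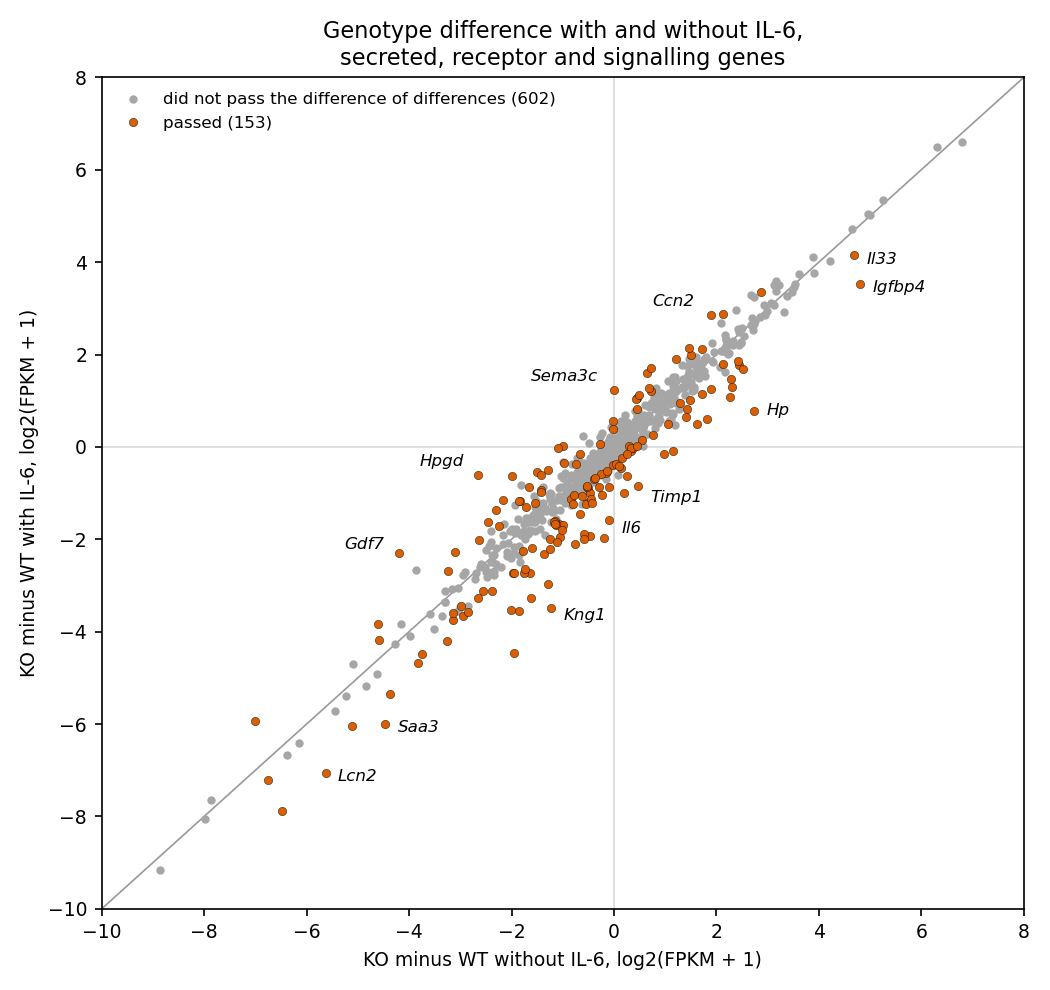
KO minus WT, log2(FPKM + 1), with IL-6 (vertical axis) against without IL-6 (horizontal axis) for the 755 secreted, receptor and signalling genes, each point a gene; the line marks equal differences and orange points passed the difference of differences. The 153 orange points lie off the line on both sides, with Il6, Kng1 and Timp1 below it and Gdf7, Hpgd and Sema3c above.

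Over all genes, the largest differences with IL-6 set the secreted genes in context. Trf, the iron carrier transferrin and itself a secreted protein, was listed at 0 in both WT libraries and at 1565 and 1550.0 FPKM in KO (10.61 ± 0.035, adjusted p = 4.58e-12). The homeobox gene Rhox5 was at 0 and 0.0549 in WT and 659 and 691 in KO, and the uroplakin genes Upk3b (0.0303 and 0.00745 in WT and 497 and 511 in KO) and Upk1b (0 and 0.0146 in WT and 341 and 329 in KO), the membrane glycoprotein gene Gpm6a (0 in both WT libraries and 289 and 281 in KO) and the retinaldehyde dehydrogenase gene Aldh1a1 (0.0135 and 0 in WT and 274 and 268 in KO) followed. Lrrn4 (164 and 171) and Tspan8 (131 and 132) were listed at 0 in WT. Upk3b, Upk1b and Lrrn4 are among the mesothelial markers. On the lower side, Cxcl5 led, followed by Crabp1, a retinoic acid carrier (482 and 508 in WT and 0.279 and 0.103 in KO), Ly6a, the surface protein Sca-1 (1007 and 912 in WT and 2.59 and 1.53 in KO), Ccn5, Il1rn, the neuronal vesicle gene Nsg1 (366 and 365 in WT and 0.843 and 0.762 in KO; it overlaps Stx18), Penk and Cxcl1. Of these 8 genes, 5 encode secreted proteins of the lists above (Cxcl5, Ccn5, Il1rn, Penk and Cxcl1).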

How the data were processed

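RNA of mouse embryonic fibroblasts was sequenced as 8 libraries, 2 for each of 4 groups. Per the labels' protocols, RNA was isolated with RNeasy and libraries came from the TruSeq stranded mRNA kit. The authors deposited FPKM per transcript, 142869 in each file. HISAT2, Cufflinks 2.2.1 and the build GRCm38.p6 are named, per the submitters' processing notes; the annotation and the use of strand in counting are not given in the sources used here. Reads of genes that overlap on opposite strands may therefore have been shared.

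From the deposited FPKM, transcripts were summed to 55358 genes by the symbol in their names, of which 53385 were found in GENCODE M21 (97.11% of transcript names), the source of coordinates. The 13693 genes with at least 1 FPKM in 2 or more of the 8 libraries were tested on log2(FPKM + 1) with limma 3.58.1 in R 4.3.3. The model held a mean per group over all 8 libraries and an intensity trend, and p-values were adjusted by Benjamini-Hochberg over all genes, with 0.05 as threshold. With 2 libraries per group, single-gene permutation tests could not reach that threshold, and none was run. Motif searches and summaries used Python 3.11.15, pandas 2.3.3 and numpy 2.4.6, and plots matplotlib 3.10.9. Depth is not given with the FPKM: it was fitted from low values, of which 91.6% to 93.8% lay within 0.1 of a whole fragment number.

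The gene lists and the members were chosen with earlier results of these data known. Named genes are those of the series' title and design, the 3 highest and 3 lowest of each list among called genes with a log2 difference of at least 1, groups that do not overlap and a mean of at least 5 FPKM in the higher group, the 8 highest and 8 lowest of all genes under the same conditions, and genes that passed the difference of differences. Of the last, 44 of 153 are printed, and some genes that the rule takes are not reported here. Named outside this rule, after their values were seen, to complete small counts or ligand and receptor pairs, were Cxcl10, Cxcl14, Cxcl15, Ccl5, Ccl7, Ccl25, Cx3cl1, Il15ra, Tslp, Crlf2, Csf1, Spp1, Lif, Cntf, Il27ra, Jak2, Socs1, Socs5, Irf1, Axl, Igf1r, Fgf10, Fgfr2, Met, Egfr, Pdgfb, Angpt1, Vegfc, Vegfd, Flt4, Ddr1, Ddr2, Igfbp6, Igfbp7, Ccn4, Wnt9a, Wnt11, Rspo1, Rspo2, Notum, Smo, Slit2, Smad7, Apoe, C3, Cfb, Fas, Tlr4, Tnfrsf1b, Il13ra2, Ifnlr1, Epor, Nfkbia, Spry1, Spry2, Apln and Cebpd. Alternatives were 3 other scalings, 2 other filters, 2 other pseudocounts, no intensity trend, the replicate number as a block, the compared groups alone, transcripts in place of genes, and each library left out in turn.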

Additional observations from a re-analysis of the deposited data

Results flagged for a closer look

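For 44 of the genes named in the text, the genotype difference with IL-6 was not the same as the one without it. This rests on limma's test of the difference between both (adjusted p below 0.05). Other named genes passed it too, Cxcl2, Ccl2, Il1rn and Jak1 among them, and are not listed here. Values are the difference between both genotype differences on the log2(FPKM + 1) scale, with IL-6 minus without. A negative value means that KO stood lower against WT with IL-6 than without.

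Among cytokines and their receptors, the values were -1.5 for Il6, -1.77 for Tnfsf11, -0.54 for Il33, -0.68 for Mif, -0.93 for Cxcl3 and -0.58 for Cxcl12. They were -1.3 for Il13ra1, -0.69 for Osmr, -0.42 for Il6st, -0.82 for Il1r1, -0.92 for Tnfrsf11b and -0.56 for Cd14. Acute-phase and protease genes gave -1.54 (Saa3), -1.43 (Lcn2), -1.34 (Ptx3), -2.25 (Kng1), -1.96 (Hp), -0.95 (Serping1), -1.3 (Timp1) and -1.2 (Mmp13).

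Growth factors, their carriers and the CCN proteins gave -1.7 (Angptl4), -1.52 (Ereg), -0.77 (Vegfa), -0.64 (Igfbp3), -1.28 (Igfbp4), 1.01 (Igfbp5), 0.96 (Ccn2) and -0.85 (Ccn3). Morphogens, guidance molecules and their receptors gave 0.75 (Tgfb2), 0.64 (Tgfb3), -0.72 (Grem1), 1.91 (Gdf7), -1.2 (Fst), -1.1 (Rspo3), -1.24 (Wnt16), -1.01 (Sfrp1), 0.68 (Fzd1) and 1.23 (Sema3c). Signalling genes gave -0.42 (Stat3), -0.80 (Socs3), -0.82 (Dusp6), -0.49 (Rasa3), -0.98 (Sgk1) and 2.06 (Hpgd).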

How the results depend on the processing

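The number of genes that differed with IL-6 ranged from 7973 (filter of 5 FPKM) to 14307 (transcripts, of 33179), around 9813, and from 8901 to 9829 with a library left out. Without IL-6 the range with a library left out was 8823 to 9663, around 9716. The difference of differences depended more on the setting: 830 genes became 521 with no filter, 248 among transcripts, and 383 to 523 with a library left out. With library totals made equal, 55.1% of its calls were higher, against 41.9%. Replicate numbers did not pair the libraries, since deviations of same-numbered libraries correlated at -0.097 to 0.055; with the number as a replicate block, 9685, 9566 and 564 genes were called with IL-6, without IL-6 and in the difference of differences. Of 221 genes named here with a call with IL-6, 215 kept it in every alternative that tested them and none reversed. Of 660 secreted, receptor and signalling genes called, 605 kept the call in all 17 alternatives run on the same genes. The cause of each lost call was not tested. Where 1 library was left out, the other of its group was assumed to vary like the other groups. List counts that a filter, a scaling or 1 library moved by over 1.5 times were those of gp130 cytokines lower in KO (2, and 1 without KO library 1, KO library 2 or WT library 2 with IL-6) and of JAK and STAT genes higher in KO (4; 10 with equal totals) and of TNF receptor and Toll-like genes higher in KO (3; 5 with equal totals), besides lists moved by filters alone. FPKM carry no count, so no counting interval was given, and 2 libraries per group limit every value.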
